A study of Homo sapiens with 12 samples.

Results

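The DHT response of Bag-1L knockout (KO) LNCaP cells was described from 4 of the 12 RNA-seq samples of the series, namely KO DHT replicates 1 and 2 against KO EtOH replicates 1 and 2, picked by their sample titles. LNCaP is an established human prostate cancer line that needs androgen for growth. Both lines of the series were made with a TALEN, an engineered nuclease. In the KO line the TALEN was directed at the CTG start codon of Bag-1L in the BAG1 gene, which left the start codons of the shorter Bag-1 proteins in place, and the KO line is a single clone obtained by serial dilution, so that effects of clone and knockout cannot be told apart. The control line had received the TALEN control. KO and control cells were deprived of hormone during 72 h by charcoal-treated serum. Over the next 16 h they received either ethanol (EtOH, the vehicle) or dihydrotestosterone (DHT) at 10 nM. The remaining 4 samples, grown in full medium (FM) without this schedule, entered the fit and their KO values are given in the closing section. Each group held 2 samples that the series calls biological duplicates.

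DHT is the most potent natural androgen. In luminal prostate cells androgens switch on secreted proteases, secretory pathway genes and lipid enzymes, and they lower a smaller group of genes. The steroid receptors as a family are held in a ligand-ready state by heat shock chaperones and move to chromatin once bound. Bag-1 proteins are co-chaperones that bind HSP70 through a shared BAG domain, and Bag-1L is the longest and nuclear form.

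The gene counts of the 4 samples summed to between 20826843 and 30354666, and 3 counts, taken as the floor of detection, corresponded to 0.0988 to 0.144 CPM, counts scaled to a common library total. Between the 2 KO EtOH samples the typical gene (mean count 100 or more) differed by 0.083 on the log2 scale, between the 2 KO DHT samples by 0.128, and between the control EtOH samples by 0.253 (medians of absolute values). The chi-square of the counts per degree of freedom was 5.35 in KO EtOH and 9.99 in KO DHT. It was 41.6 in control EtOH and 21.2 in control DHT. All 4 values lay above sampling noise, so that each sample was counted once. BAG1 (chr9:33247818-33264718, GRCh37) was read at 1191 and 1103 normalized counts in KO EtOH, 1076 and 1114 in KO DHT, 1702 and 2703 in control EtOH and 2199 and 2631 in control DHT. All 4 KO values lay below the 4 control values, and DHT did not change BAG1 past the threshold in KO (log2 -0.07, SE 0.18, adjusted p 0.906). Because the counts are per gene and the shorter Bag-1 proteins are made from the same gene, this value does not test for the loss of Bag-1L. The labelled cell type was checked by markers: luminal prostate genes summed to 3833 and 3894 CPM in KO EtOH and to 5243 and 5286 in KO DHT, whereas basal genes stayed between 22.4 and 25.9, stromal genes between 34.1 and 39.3, and endothelial and leukocyte genes between 6.17 and 6.59. In bulk RNA a change in the RNA per cell and a change in the share of such cells cannot be told apart. Mitochondrial genes held 4.10% to 4.80% of the gene counts of the 4 samples.

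A gene was called when it changed at least 1.5-fold and its DESeq2 adjusted p did not exceed 0.05. In KO cells 1346 of 17535 tested genes were called (7.68%), of which 777 were higher (4.43%) and 569 lower (3.24%) with DHT. Large changes were mostly rises, and the median change was 1.04 for the higher and -0.92 for the lower genes. At least a 4-fold change was fitted for 154 of the genes that rose and 42 of those that fell, and at least an 8-fold change for 71 and 3. A further 1038 genes passed the adjusted p with a smaller change, 630 of them higher and 408 lower. In the EtOH samples the genes that rose held 4.03% and 4.16% of all gene counts, and in the DHT samples 9.06% and 8.75%. The genes that fell went from 2.42% and 2.46% to 1.27% and 1.18%. Among the 313 tested genes with a mean of at least 10000 normalized counts, 10.5% rose and 1.92% fell, whereas of the 6002 genes between 100 and 1000 counts 4.70% rose and 5.28% fell. The DHT and EtOH samples did not overlap for any of the 1346 called genes, a property that 59% of all tested genes shared. When a KO sample was left out the number of called genes fell to between 961 and 1066, and that of lower genes to between 326, without KO EtOH replicate 2, and 400, without KO DHT replicate 1.

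**Figure D1:**
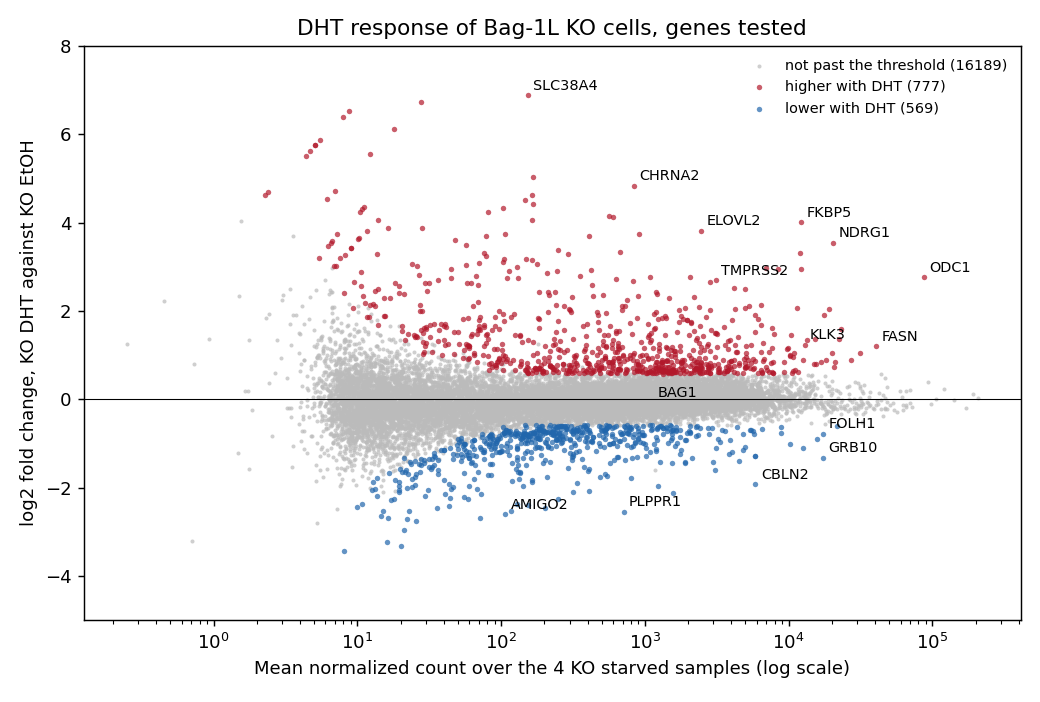
Log2 fold change of every tested gene between KO DHT and KO EtOH (vertical axis) against its mean normalized count over the 4 samples (horizontal axis, log scale), with the 777 higher genes in red and the 569 lower genes in blue. Most of the points far from 0 are rises, and BAG1 lies among the grey genes that were not called.

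Genes known as direct or early targets of androgen in LNCaP cells responded as a group. Of 33 androgen-induced genes on the list, 31 could be tested and 31 of these were called higher, beside 4.43% of all tested genes. Their median log2 change was 2.01, against -0.01 over all tested genes. edgeR also called 31, and the smallest change was 0.78, in PDIA5. STEAP4 and ORM1 stayed at or near the floor in all 4 samples and received no adjusted p. The list was compiled with earlier results of these data known, so that its count is a description.

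FKBP5 (chr6:35541362-35696360), an immunophilin that binds HSP90 in steroid receptor complexes, was at 1450.2 and 1424 normalized counts in the EtOH samples and at 23628 and 22488 in the DHT samples. This was a 16.1-fold rise (log2 4.0, SE 0.10), far wider than the gap between replicates. SGK1, a kinase that steroid hormones induce, had the largest change of the list and went from 54.3 and 74.3 to 1194 and 1072 (log2 4.13, SE 0.19, adjusted p 1.93e-100). MAF, a bZIP transcription factor, stood at 126 and 129 with EtOH and at 1709 and 1699 with DHT (log2 3.74, SE 0.15, adjusted p 6.56e-139). NDRG1, a stress and differentiation gene, was at 3185 and 3234 and rose to 36980.1 and 38110.1 (log2 3.55, SE 0.10, adjusted p 5.46e-272). The prostate-restricted transporter SLC45A3 rose from 2123 and 2235 to 20726 and 22750.3 (log2 3.32, SE 0.12, adjusted p 1.03e-177). In each of these genes the lower DHT sample exceeded the higher EtOH sample several times over.

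TMPRSS2 (chr21:42836227-42903043), a membrane serine protease, was at 857 and 804 and at 5724 and 5075 (log2 2.70, SE 0.12, adjusted p 3.27e-113). TRPM8 (chr2:234826018-234928166), the cold-sensing cation channel, was at 246 and 273 and 1310.2 and 1178 (log2 2.26, SE 0.13, adjusted p 4.05e-65). Neither of these genes showed overlapping groups, which held for all 1346 called genes and for 59% of all tested genes. PMEPA1, an inhibitor of TGF-beta signalling, rose from 1489 and 1518 to 8389.8 and 8628 (log2 2.50, SE 0.09), and ZBTB16, a zinc finger repressor, from 159 and 173 to 1142 and 1046 (log2 2.72, SE 0.20). EAF2 and ELL2, which act together in transcription elongation, rose by log2 2.58 and 2.01. Smaller rises were fitted for UAP1, which makes UDP-N-acetylglucosamine (log2 1.06), for CREB3L4, a membrane-bound bZIP factor (log2 1.08), for TPD52 (log2 1.27) and for ZBTB10 (log2 1.32). CAMKK2, the kinase that activates AMPK, took a middle place with 3657 and 3821 in EtOH and 11452 and 11530.0 in DHT (log2 1.62). PLPP1, a lipid phosphatase, rose by log2 1.69, and 24.9% of its exon length is overlapped by exons of genes on the opposite strand.

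The kallikreins are a cluster of secreted serine proteases on chromosome 19, among them prostate-specific antigen (KLK3). Of 6 tested members 3 were called, all higher. The median log2 change of 0.73 rests on few genes, since it was 0.24 by edgeR, which tested 10 members, and 1.11 without KO DHT replicate 1, with 4 tested. KLK3 (chr19:51358171-51364020) was at 7848 and 7546 in EtOH and 18405 and 17932 in DHT (log2 1.24, SE 0.13, adjusted p 4.52e-19). KLK2 (chr19:51364824-51383823) went from 7397 and 7306 to 27602 and 27647 (log2 1.91, SE 0.12, adjusted p 1.95e-50). KLK4, with 2885 and 2950.3 in EtOH and 4964 and 5776 in DHT, rose the least of the 3 (log2 0.88, SE 0.15, adjusted p 1.54e-07). On a scale per length, KLK3 rose from 70.6 to 158 RPKM (counts scaled to exon length and library total) and KLK2 from 49.2 to 176, so that the order of their levels turned with DHT. Of the members that were not called, KLK1 had a log2 change of 0.58, KLK14 one of 0.47 and KLK15 one of -0.08.

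The KLK3 promoter is printed because it is long known to respond to androgen. That of SLC38A4 is printed because its fitted change was the largest among called genes with a symbol and a mean of at least 100. Both were read from RefSeq (GRCh38.p14) as the 250 bases before the start of transcription, 5′ to 3′ along the gene, and capitals mark AGAACA or its reverse complement TGTTCT, the 6 bases on each side of the palindromic androgen response element. They were selected after the matches were known.
KLK3 (chr19:50854665-50854914, plus strand): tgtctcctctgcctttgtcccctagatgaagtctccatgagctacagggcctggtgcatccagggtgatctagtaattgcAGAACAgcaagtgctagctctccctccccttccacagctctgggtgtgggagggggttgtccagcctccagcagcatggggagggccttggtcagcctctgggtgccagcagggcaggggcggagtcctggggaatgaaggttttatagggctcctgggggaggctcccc
SLC38A4 (chr12:46825998-46826247, minus strand): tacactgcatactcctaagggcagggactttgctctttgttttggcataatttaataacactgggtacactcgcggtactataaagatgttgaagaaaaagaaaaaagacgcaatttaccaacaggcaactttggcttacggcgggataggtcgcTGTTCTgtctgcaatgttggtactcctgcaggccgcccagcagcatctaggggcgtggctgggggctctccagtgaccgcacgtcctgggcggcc
In KLK3 the 6 bases start 170 bases before the transcription start, and in SLC38A4 95 bases before it. The same letters were found in 9.14% of the 11779 tested genes that have a promoter window in RefSeq (250 bases before to 50 after the start), in 9.91% of 575 genes that rose and in 11.1% of 407 genes that fell. A RefSeq window was at hand for 982 of the 1346 called genes. The full palindrome, AGAACA and TGTTCT with any 3 bases between them, was in 0 of the 11779 windows. A relaxed form, GNACA and TGTNC with any 3 bases between them, was in 24 of them (0.204%), in 4 of the 575 higher genes (EEF2K, GNMT, LINC00844 and MAP3K6) and in 1 of the 407 lower genes (MYNN). Such matches describe the letters of these windows and are no record of binding.

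The 12 largest rises were taken among genes with a symbol, a mean of at least 100 normalized counts and no overlap between groups. Larger rises at lower counts, such as that of ACADL given below, were thus left out. The 12 ranged from genes with a few reads in EtOH to genes that were plainly expressed there. SLC38A4 (chr12:47158544-47226191), an amino acid transporter, had 2 and 3 reads in the EtOH samples and 379 and 302 in the DHT samples. The ratio of the pooled reads, scaled by size factors, was 118 with a 95% counting interval of 50.4 to 365 (exact binomial, counting error only). CCDC141 was at 9.0 and 10.4 normalized counts in EtOH and at 330.0 and 313 in DHT (log2 5.04, SE 0.37, adjusted p 1.02e-40). CHRNA2, a nicotinic acetylcholine receptor subunit, went from 61 and 52.7 to 1532 and 1700.2 (log2 4.83, SE 0.19, adjusted p 6.2e-137). For CTNNA2, an alpha-catenin mostly known from neurons, the values were 10.2 and 15.1 and 324 and 305 (log2 4.62, SE 0.33, adjusted p 5.64e-41). TG, which encodes thyroglobulin, rose by log2 4.51, SLC2A3, the glucose transporter GLUT3, by 4.33 and PGC, a gastric-type protease zymogen, by 4.06. TRGC1, the T-cell receptor gamma constant gene that prostate cells also transcribe, was at 11.3 and 17.9 and 333 and 305, and TUBA3D, an alpha-tubulin, at 54.3 and 64.9 and 993 and 1130.5. Both have near-identical copies in the genome, so that reads may have been lost or split between copies. ELOVL2, an elongase of very long polyunsaturated fatty acids, ended the 12 largest rises with 318 and 337 in EtOH and 4811 and 4402 in DHT (log2 3.81, SE 0.12, adjusted p 4.08e-202).

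**Figure D2:**
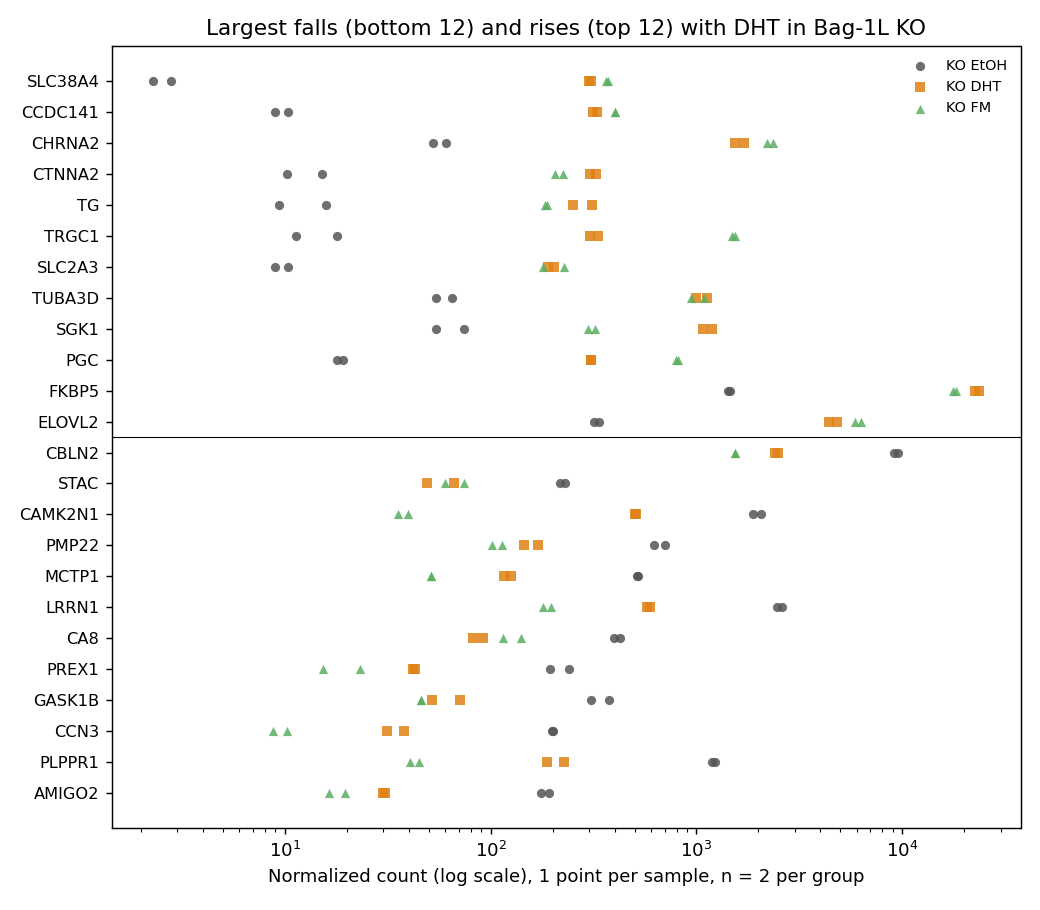
Normalized counts (horizontal axis, log scale) of the 12 genes with the largest rises, above the line, and the 12 with the largest falls, below it, in each KO EtOH, KO DHT and KO FM sample (2 points per group). The genes were chosen among those with a symbol, a mean of at least 100 and groups that do not overlap. Their values run from SLC38A4 at 2.3 and 2.8 against 306 and 301 to AMIGO2 at 176 and 192 against 30.7 and 29.9.

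Genes that androgen is known to lower mostly fell. Of 13 tested androgen-repressed genes 10 were called, all lower (76.9%, beside 3.24% of all tested genes called lower). Their list had a median log2 change of -1.28. It was also compiled with earlier results of these data known, so that its count is a description. AMIGO2, an adhesion molecule, fell from 176 and 192 to 30.7 and 29.9 (log2 -2.60, SE 0.29, adjusted p 8.54e-18). PLPPR1, a membrane protein of neurons, stood at 1188 and 1237 in EtOH and at 188 and 228 in DHT (log2 -2.55, SE 0.18, adjusted p 8.08e-45), and CCN3, a matrix-associated growth regulator, at 200.1 and 199.5 and 31.5 and 37.8 (log2 -2.53, SE 0.31, adjusted p 1.96e-14). Each of these genes lost more than 4-fold. OPRK1, the kappa opioid receptor, fell by 2.14 on the log2 scale, ACKR3, a scavenger of the chemokine CXCL12, by 1.28, and FOLH1, the prostate-specific membrane antigen, by 0.78. MME was lower without a call, at log2 -0.38, and GRIN3A was at 0.38.

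Among the largest falls outside this list was PMP22, a myelin and epithelial membrane protein, with 699.7 and 622 in EtOH and 145 and 170.3 in DHT (log2 -2.07, SE 0.16, adjusted p 3.02e-34). PREX1, an activator of Rac, went from 193 and 241 to 42.0 and 42.8 (log2 -2.36, SE 0.30, adjusted p 4.6e-13). LRRN1, a leucine-rich repeat protein of the nervous system, fell from 2617 and 2464 to 594 and 577 (log2 -2.12, SE 0.17, adjusted p 5.19e-34). These falls also exceeded 4-fold. CAMK2N1, an inhibitor of the kinase CaMKII, was at 2065 and 1874 and 508 and 505 (log2 -1.96, SE 0.13), and CBLN2, an organiser of synapses, at 9495 and 9114 and 2412 and 2489 (log2 -1.92, SE 0.09). GASK1B (log2 -2.46), CA8 (log2 -2.25), MCTP1 (log2 -2.09) and STAC (log2 -1.96) completed the 12.

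Bag-1L works with the chaperones that hold steroid receptors, and these were examined next. Of 23 tested chaperones and co-chaperones, FKBP5 alone was called in KO cells, a share (4.35%) near that of all tested genes called higher (4.43%). A further 5 passed the adjusted p with a rise below the fold minimum and 0 with a fall. A positive change was fitted for 19 of 23, and the median change was 0.21. HSP90AA1 (log2 0.22), HSP90AB1 (log2 0.18), the HSP70 gene HSPA8 (log2 0.40) and FKBP4 (log2 0.26) all had small positive values below the fold minimum. Of the other Bag family genes, BAG3 was at log2 0.51 and BAG2 at -0.32, again without a call. Of the 19 tested luminal transcription factors and coregulators 4 were called, all of them higher, among them SPDEF, GRHL2 and CREB3L4. SPDEF, an ETS factor of secretory epithelium, went from 2347 and 2384 to 9448 and 11472 (log2 2.14, SE 0.15, adjusted p 1.53e-41), and GRHL2, a factor that maintains epithelial junctions, from 2999.9 and 3072 to 7138 and 6915 (log2 1.21, SE 0.13, adjusted p 1.05e-19). The pioneer factor FOXA1 (log2 0.24), HOXB13 (log2 -0.26) and the coactivators NCOA1 (log2 0.16), NCOA2 (log2 -0.08) and NCOA3 (log2 0.01) were not called.

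Genes that make or inactivate androgen moved both ways. Of 22 tested members 5 were called higher and 3 lower, with a median of 0.03. The UGT2B enzymes, which attach glucuronic acid to steroids and lie side by side on chromosome 4, were split. UGT2B28 (chr4:70146193-70160768) was at 21.5 and 21.6 in EtOH and 182 and 188 in DHT (log2 3.10, SE 0.28, adjusted p 2.37e-26), UGT2B11 (chr4:70065669-70080466) at 83.6 and 64.9 and 423 and 372 (log2 2.43, SE 0.19, adjusted p 2.02e-35), and UGT2B4 at 45.2 and 55.5 and 208 and 179 (log2 1.94, SE 0.22, adjusted p 4.57e-17). UGT2B15, one of the main enzymes that clear DHT in the prostate, fell from 235 and 226 to 110.5 and 122 (log2 -0.99, SE 0.18, adjusted p 1.28e-06), and UGT2B17 from 169.6 and 186 to 91.2 and 102 (log2 -0.89). These genes are close copies, and reads that fit several of them were not counted, so their levels are uncertain. HSD17B4, a peroxisomal enzyme that also oxidises steroids, rose by log2 0.62, whereas HSD3B1, which acts early in steroid synthesis, fell from 71.2 and 67.8 to 29.0 and 28.9 (log2 -1.26).

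The RNA of several lipid synthesis genes rose. In fatty acid synthesis and activation, 8 of 21 tested genes were called higher and 1 lower (42.9%, beside 7.68% of all tested genes). A positive change was fitted for 14 of 21, and the median change was 0.20. FASN, the fatty acid synthase (chr17:80036214-80056170), was at 21675 and 27925 in EtOH and 56539 and 57187 in DHT (log2 1.20, SE 0.14, adjusted p 1.52e-15). ACSL3, which activates long-chain fatty acids, went from 7235 and 7614 to 32531 and 29174 (log2 2.05, SE 0.10, adjusted p 3.69e-97), and the elongase ELOVL7 from 730.2 and 831 to 5155 and 4725 (log2 2.66, SE 0.11, adjusted p 3.7e-125). With ELOVL2 these genes had the widest gaps between the groups, and ELOVL5 (log2 1.16), FADS2 (log2 0.89), FADS1 (log2 0.87) and ELOVL1 (log2 0.60) rose less. ACSL5 fell from 81.4 and 67.8 to 39.5 and 33.9 (log2 -1.01). In cholesterol synthesis and uptake 9 of 26 genes were called higher and 1 lower (38.5%). A further 9 passed the adjusted p with a rise below the fold minimum, and 23 of 26 had a positive change. HMGCS1, which makes the precursor of mevalonate, was at 4538 and 4892 and 10551 and 9250.1 (log2 1.07, SE 0.10, adjusted p 1.37e-24), with 37.7% of its exons under exons of the other strand. FDFT1, the squalene synthase, went from 16109.5 and 15142 to 25192 and 26500.3 (log2 0.73, SE 0.13, adjusted p 2.19e-07), and STARD4, a carrier of sterols, from 1070.4 and 1155 to 2038 and 1644 (log2 0.73). INSIG2, which holds the SREBP complex in the endoplasmic reticulum, fell from 861 and 822 to 567 and 445 (log2 -0.73, SE 0.15, adjusted p 5.13e-05), a call that was lost without KO DHT replicate 2.

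In fatty acid oxidation 5 of 24 tested genes were called higher and 1 lower, or 25% beside 7.68% of all tested genes, and 5 more passed the adjusted p with a fall below the fold minimum. ECI2, which prepares unsaturated fatty acids for oxidation, rose from 1595 and 1441 to 3351 and 3503 (log2 1.18, SE 0.14, adjusted p 8.13e-15), with 29.8% of its exons overlapped on the other strand. The carnitine carrier SLC25A20 rose by log2 0.84, the peroxisomal thiolase ACAA1 by 0.78, and the mitochondrial thiolase ACAA2 fell by 0.73. ACADL had 0 and 1 reads in EtOH and 47 and 33 in DHT, a pooled ratio of 69.4 with a 95% counting interval of 12.1 to 2776.

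Polyamine synthesis held the most abundant gene of the response. ODC1, the ornithine decarboxylase that starts the pathway (chr2:10580094-10588453), was at 23132 and 21602 normalized counts in EtOH and at 153830.3 and 150490.0 in DHT (log2 2.77, SE 0.14, adjusted p 1.53e-82). It rose from 288 to 1858 RPKM and from 0.0983% and 0.0920% to 0.628% and 0.601% of all gene counts, the largest gain in counts of any called gene. SMS, the spermine synthase, went from 2794 and 2601 to 9818 and 9152 (log2 1.81, SE 0.15, adjusted p 2.08e-33). SAT1, which acetylates spermidine and spermine for export, rose from 1223 and 1092 to 3749 and 3569 (log2 1.66, SE 0.16, adjusted p 1.63e-22), and SMOX, which oxidises spermine, from 313 and 302 to 463 and 522 (log2 0.68, SE 0.16, adjusted p 0.000566). Synthesis and breakdown genes were thus both among the 4 of 15 that were called, all higher. Other large gains in counts were those of NDRG1, FASN, ACSL3 and ABHD2, and ABHD2, a lipase, was at 19253 and 21412 in EtOH and 44706 and 39209.7 in DHT (log2 1.05, SE 0.17, adjusted p 5.15e-08). The largest losses were those of GRB10, SESN3, ADD3, FOLH1, DHX36 and PRUNE2. ADD3, an adducin of the membrane skeleton, fell from 16936 and 17385 to 8451 and 7585 (log2 -1.10, SE 0.11, adjusted p 8.14e-20), and PRUNE2 from 12881 and 14295 to 7362 and 6104 (log2 -1.01, SE 0.19, adjusted p 2.02e-06). DHX36, a helicase that unwinds G-quadruplexes, went from 26059 and 26286 to 18008 and 16299 (log2 -0.61) and was no longer called without KO DHT replicate 2.

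The RNA of a few nutrient transporters rose. Of 23 amino acid transporters 4 were called, all higher. Besides SLC38A4 these were SLC43A1, a carrier of leucine, with 1139 and 1151 in EtOH and 3958 and 4445 in DHT (log2 1.88, SE 0.12, adjusted p 6.05e-56), SLC38A2 (log2 1.15) and SLC38A1 (log2 0.62). SLC38A1 was no longer called without KO EtOH replicate 1 or without KO DHT replicate 1. In glycolysis 6 of 24 genes were called, each of them higher. HK2, a hexokinase, went from 1511 and 1584 to 2824 and 2535 (log2 0.79, SE 0.12, adjusted p 1.69e-09), and SLC2A1, the glucose transporter GLUT1, from 841 and 789.6 to 1318 and 1379.5 (log2 0.73, SE 0.13, adjusted p 2.73e-07). SLC2A12, with 405 and 484 and 876 and 832, has 51.2% of its exon length under exons of the other strand. Of 24 genes of the ATF4 amino acid response, ATF3 alone was called and was higher (log2 0.71), a share of 4.17%.

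Genes of folding and transport in the endoplasmic reticulum (ER) were called in the higher direction alone. Of 42 genes 17 were called, all higher (40.5%, beside 4.43% of all tested genes called higher). A positive change was fitted for 40, and 13 more genes passed the adjusted p with a rise below the fold minimum. The median change of the 42 was 0.52, and edgeR called 19 of them, all higher. This list too was chosen with earlier results of these data known, so that its count is a description. ERN1, the ER stress sensor IRE1, was at 521 and 633 in EtOH and 2106 and 2008 in DHT (log2 1.83, SE 0.17, adjusted p 1.76e-25). The cargo receptor SEC24D of the transport vesicle coat went from 732 and 750.0 to 2124 and 1923 (log2 1.45, SE 0.15, adjusted p 1.72e-21), and the cochaperone DNAJB9 from 639.8 and 606 to 1635 and 1511 (log2 1.34, SE 0.13, adjusted p 3.37e-23). HYOU1, an ER chaperone of the HSP70 family, rose from 8884 and 8797 to 16492 and 16468 (log2 0.90, SE 0.11, adjusted p 9.16e-14). These genes had no overlap between groups, as was so for every called gene and for 59% of all tested genes. Among the foldases, PDIA4 went from 14941 and 15168 to 26422 and 28041 (log2 0.86) and PDIA5 from 1471 and 1307 to 2341 and 2428 (log2 0.78). HSPA5, the main ER chaperone BiP, was at 35820.3 and 34485 and 51788 and 52987, a log2 change of 0.58 that fell just short of the fold minimum, and XBP1 and SEC23A had the 2 negative values, -0.27 and -0.21.

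The promoters of 3 ER genes are printed because the stress elements that ATF6 and XBP1 recognise stand in them, again read from RefSeq (GRCh38.p14, 250 bases before the start, 5′ to 3′ along the gene). Capitals mark the ER stress element (CCAAT and CCACG with any 9 bases between them, on either strand) in HSPA5 and CRELD2, and the XBP1 core TGACGTGG in HYOU1. These motifs and promoters were picked after the response of the group had been seen.
HSPA5 (chr9:125241344-125241593, minus strand): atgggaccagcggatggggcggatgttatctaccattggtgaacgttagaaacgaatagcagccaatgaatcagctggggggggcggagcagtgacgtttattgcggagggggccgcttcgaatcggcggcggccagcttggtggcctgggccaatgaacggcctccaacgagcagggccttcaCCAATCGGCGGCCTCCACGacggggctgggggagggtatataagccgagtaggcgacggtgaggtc
CRELD2 (chr22:49918384-49918633, plus strand): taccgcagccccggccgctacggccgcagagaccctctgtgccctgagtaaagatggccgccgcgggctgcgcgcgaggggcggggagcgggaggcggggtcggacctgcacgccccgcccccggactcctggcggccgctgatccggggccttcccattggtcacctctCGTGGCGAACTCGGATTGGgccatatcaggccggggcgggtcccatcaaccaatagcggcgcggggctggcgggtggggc
HYOU1 (chr11:119057206-119057455, minus strand): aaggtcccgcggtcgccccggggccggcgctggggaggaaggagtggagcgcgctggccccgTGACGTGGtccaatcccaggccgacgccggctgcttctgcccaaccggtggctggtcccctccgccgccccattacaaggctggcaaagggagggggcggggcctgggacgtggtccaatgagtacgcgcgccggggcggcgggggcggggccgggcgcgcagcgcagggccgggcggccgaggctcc
The element starts 66 bases before the start of transcription in HSPA5 and, on the opposite strand, 80 bases before it in CRELD2, and the core of HYOU1 starts 188 bases before it. CRELD2, a folding factor of the ER, was at 1793 and 1672 in EtOH and 2677 and 2987 in DHT (log2 0.71). The ER stress element was in 7 of the 38 ER genes with a window (18.4%) and in 15 of all 11779 windows (0.127%), and the XBP1 core in 7 of 38 and in 106 of 11779 (0.90%). Of the 7 ER genes with the stress element, CRELD2 alone was called, and XBP1 itself holds one.

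Among cell cycle genes, 3 of 40 in G1/S and DNA replication were called, all higher (7.50%, beside 4.43% of all tested genes called higher). A further 5 passed the adjusted p with a rise below the fold minimum, and 28 of 40 had a positive change. At an unadjusted p below 0.05, 13 were higher and 2 lower. CDK6, the G1 kinase, went from 132 and 140.2 to 434 and 380.5 (log2 1.58, SE 0.17, adjusted p 9.95e-18), CDC6, a licensing factor of replication, from 918 and 1009 to 1609 and 1460.2 (log2 0.67, SE 0.11, adjusted p 9.94e-09), and CDC25A from 511 and 501 to 758 and 775 (log2 0.60, SE 0.12, adjusted p 5.88e-06). Of 35 G2/M genes 0 were called by DESeq2 or by edgeR, with 1 higher and 5 lower at an unadjusted p below 0.05 and a range of log2 changes from -0.35 to 0.23. Of 23 p53 targets 2 were called higher and 2 lower. TP53INP1, an autophagy and death gene, fell from 6425 and 6738 to 3151 and 2809.8 (log2 -1.14, SE 0.12, adjusted p 6.19e-20) and SESN1, a sestrin that restrains mTORC1, from 2645 and 2482 to 1602 and 1459 (log2 -0.74, SE 0.12, adjusted p 5.26e-08). AEN and TNFRSF10B rose by log2 0.59 and 0.64, close to the fold minimum, and each lost its call when 1 KO sample was left out (AEN without KO EtOH replicate 2 or KO DHT replicate 2, TNFRSF10B without KO EtOH replicate 1). In the MYC network MXI1, an antagonist of MYC, was the 1 called gene of 11 and fell by 0.69. The 56 cytosolic ribosomal protein genes had a median of -0.16, and 0 were called by either tool, with 0 higher and 3 lower at an unadjusted p below 0.05.

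**Figure D3:**
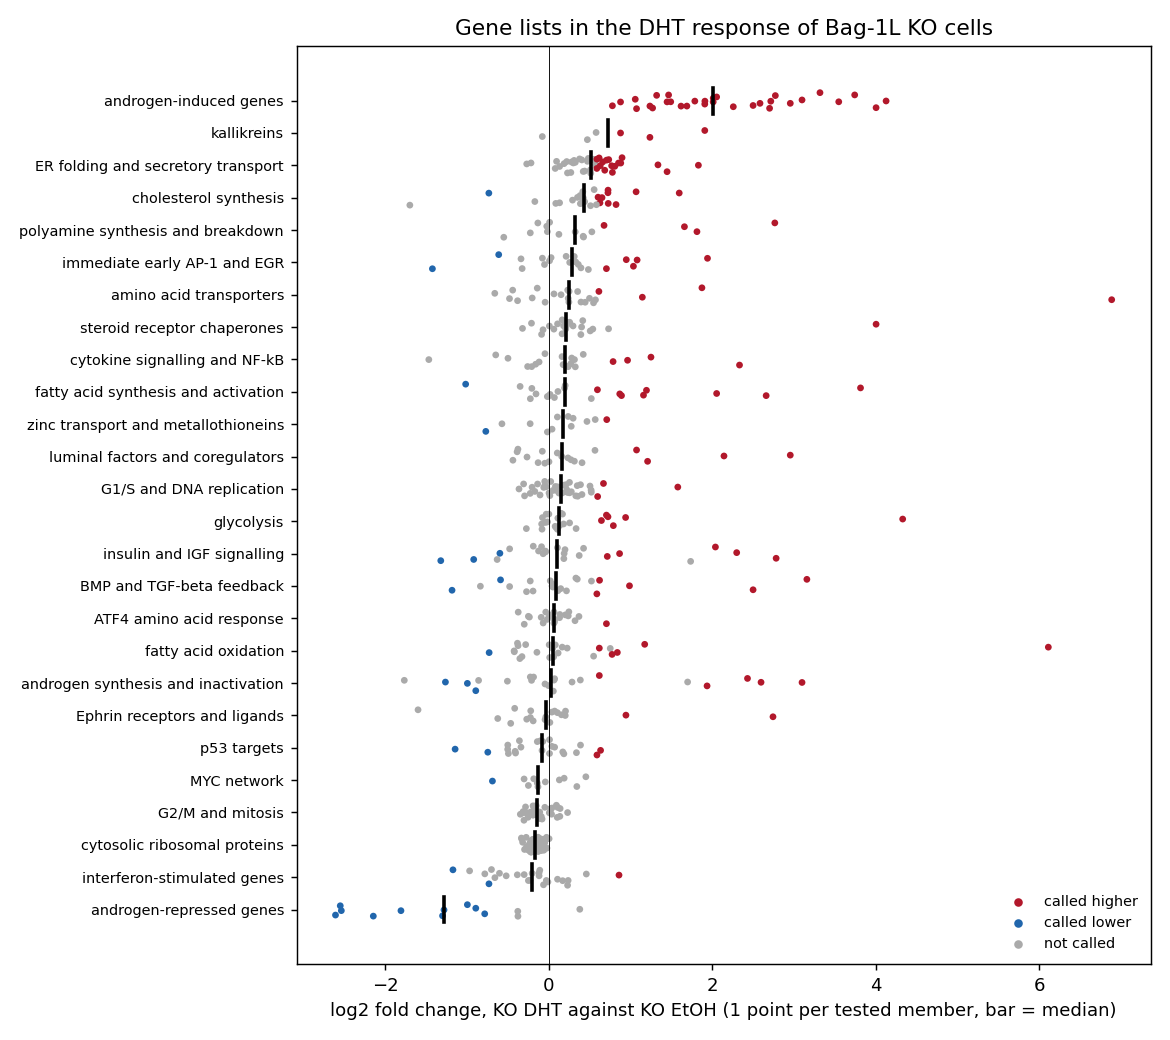
Log2 fold change between KO DHT and KO EtOH (horizontal axis) of the tested members of the gene lists other than cell type markers, 1 point per gene, with the median as a black bar and called genes in red (higher) or blue (lower). The androgen-induced genes (median 2.01), kallikreins (0.73 over 6 genes, and 0.24 over 10 by edgeR), ER genes (0.52) and cholesterol genes (0.43) lie furthest to the right and the androgen-repressed genes (-1.28) furthest to the left.

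Receptors and feedback genes of growth factor pathways moved in both directions. In insulin and IGF signalling 5 of 23 genes were called higher and 3 lower. IGF1R, the receptor for IGF-1 (chr15:99191768-99507759), was at 491 and 498 in EtOH and 2457 and 2411 in DHT (log2 2.30, SE 0.14, adjusted p 6.91e-57), IRS2, its adaptor, at 119.8 and 114 and 490.5 and 469 (log2 2.04, SE 0.18, adjusted p 8.66e-27), and INPP4B, a phosphoinositide phosphatase, at 85.9 and 92.2 and 647 and 579.7 (log2 2.78, SE 0.17, adjusted p 1.14e-56). GRB10, an adaptor that dampens insulin receptor signalling, fell from 24154 and 25099 to 9785 and 9973 (log2 -1.32, SE 0.10, adjusted p 2.91e-37). PIK3R1, a regulatory subunit of PI3-kinase, fell by 0.92 on the log2 scale. The median change of the list was 0.11, beside -0.01 over all tested genes.

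In the BMP and TGF-beta list 5 of 22 were called higher and 2 lower. BMPR1B, a BMP receptor, rose from 27.1 and 38.6 to 306 and 287 (log2 3.16, SE 0.26, adjusted p 2.78e-32), ID1, an inhibitor of bHLH factors, from 399 and 312 to 662 and 746 (log2 0.99, SE 0.18, adjusted p 1.04e-06), and BAMBI, a decoy receptor, fell from 674 and 605 to 278 and 286 (log2 -1.18, SE 0.17, adjusted p 3.11e-10). Of 21 cytokine and NF-kB genes 4 were called by DESeq2, all higher, and edgeR also called 2 lower. SOCS2, which limits cytokine signalling, went from 139 and 151 to 715 and 749 (log2 2.33, SE 0.16, adjusted p 1.79e-47) and the receptor IL6R from 1555 and 1697 to 3869 and 3879.5 (log2 1.25, SE 0.11, adjusted p 2.58e-29). The NF-kB inhibitors TNFAIP3 and NFKBIA rose by log2 0.97 and 0.79. All 4 genes had DHT samples above their EtOH samples, a trait of every gene called higher that does not set them apart.

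Of 20 immediate early genes 5 were called higher and 2 lower. NR4A1, an orphan nuclear receptor, was at 472 and 488 and 1727 and 1970.1 (log2 1.94, SE 0.14, adjusted p 3e-41), and the AP-1 subunit FOSL2 at 937 and 956 and 1958 and 1928 (log2 1.04, SE 0.13, adjusted p 9.05e-14), whereas DUSP5, a phosphatase of ERK, fell from 309.7 and 328 to 116.2 and 122.5 (log2 -1.42, SE 0.24, adjusted p 1.84e-07). Among 19 ephrin genes EPHA7 and EFNB2 were the called ones and both were higher (log2 2.74 and 0.95). The zinc exporter SLC30A4 fell by 0.77 and SLC30A7 rose by 0.71, the called genes among 12 of zinc transport. Of 25 interferon-stimulated genes B2M rose (log2 0.86), and OAS3 and IRF1 fell (log2 -0.73 and -1.17), with the call of OAS3 lost without KO EtOH replicate 2 or KO DHT replicate 2. DDC, the dopa decarboxylase counted among neuroendocrine markers, fell from 6767 and 6231 to 2491 and 2450.2 (log2 -1.40, SE 0.11, adjusted p 7.93e-32) and was the 1 called gene of 7 in that list. Among luminal markers, keratins KRT8 (log2 1.36), KRT18 (log2 1.22) and KRT19 (log2 1.11) rose with KLK3, while ACP3, prostatic acid phosphatase, fell from 2298 and 2236 to 908 and 753 (log2 -1.45, SE 0.14, adjusted p 1.29e-22).

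Of the called genes 678 of the higher and 495 of the lower ones were protein coding, or 5.07% and 3.70% of the 13383 coding genes tested. Long non-coding RNA (lncRNA) genes numbered 41 among the higher (1.83%) and 47 among the lower (2.10%) of 2239 tested. PART1, a prostate lncRNA, rose from 65.6 and 74.3 to 332 and 396 (log2 2.37, SE 0.21, adjusted p 1.15e-28), MIR22HG, the host of miR-22, from 178 and 178 to 585 and 543 (log2 1.67, SE 0.16, adjusted p 1.1e-23), and HECW2-AS1 from 48.6 and 46.1 to 174 and 150.4 (log2 1.78). ENSG00000238117 fell from 280.3 and 233 to 41.1 and 57.8 (log2 -2.38, SE 0.30, adjusted p 7.85e-14), and PITX1-AS1 by 1.84 on the log2 scale, with 70.8% of its exons under exons of the other strand. ENSG00000261061 (chr16:81064375-81065090), which lies within the bounds of CENPN (chr16:81040157-81066719) on the same strand, went from 124 and 119 to 1151 and 1289 (log2 3.33), beside a rise of CENPN, a centromere protein, from 512 and 543 to 3881 and 3332 (log2 2.77). The reads of the 2 overlapping genes may have been split by the counting.

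The KO response was then set beside that of the control line, with which it shares no sample. In control cells 2001 of the 17535 tested genes (11.4%) were called. Of the 777 genes that rose in KO cells, 771 had a positive change in control and 643 were called higher there. Of the 569 that fell, 566 were negative in control and 420 were called lower. The difference of the responses was tested as an interaction, and 55 of 13478 genes passed (0.408%). Among the genes called in KO cells, 1212 could be tested for the difference and 34 passed (2.81%). A total of 15 rose more in KO, 12 rose less and the other 7 fell less. The number of genes past the test of the difference was sensitive to the samples. It was 24 by edgeR, 154 without control EtOH replicate 2 and 16 without KO EtOH replicate 2, and the genes named by the rule are given below with the number of alternatives under which they held.

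**Figure D4:**
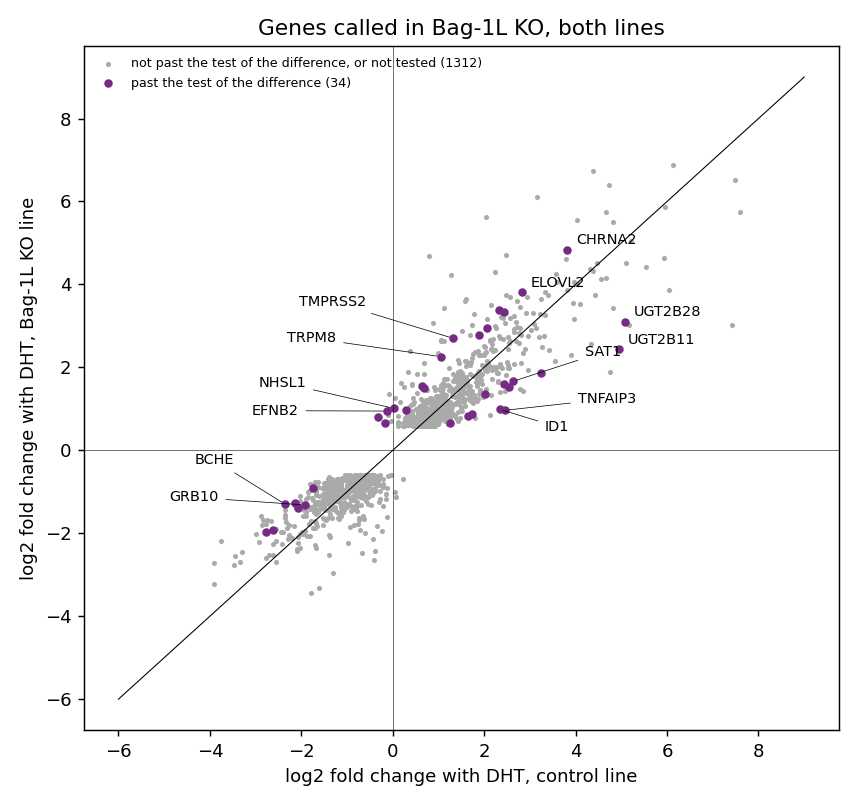
Log2 fold change with DHT in Bag-1L KO (vertical axis) against control (horizontal axis) for the 1346 genes called in KO, with the line of equal change. Purple points mark the 34 genes past the test of the difference, with TMPRSS2 and TRPM8 above the line and UGT2B11, UGT2B28, TNFAIP3 and ID1 below it.

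Of the 31 tested androgen-induced genes 5 passed the test of the difference, and UGT2B28 among them rose less in KO. The median log2 change of the list was 2.01 in KO and 1.88 in control. The genes below rose more in KO, and ELOVL2, CHRNA2 and ENSG00000261061 among them are not on that list. TMPRSS2 went from 1156 and 1321 to 3157 and 3008 in control and from 857 and 804 to 5724 and 5075 in KO, a difference in log2 change of 1.39 (SE 0.17, adjusted p 4e-13). The KO samples thus started lower and ended higher. TRPM8 was at 267 and 265 and 534 and 568 in control, against 246 and 273 and 1310.2 and 1178 in KO, a difference of 1.21 (SE 0.19, adjusted p 2.64e-07). ELOVL2 was at 761 and 706 and 5518 and 4878 in control, a difference of 0.99 (SE 0.17, adjusted p 9.3e-06), and CENPN differed by 0.89 (SE 0.17, adjusted p 0.000171). These 4 genes passed under each of the 15 alternatives. CHRNA2 differed by 1.02 (SE 0.27, adjusted p 0.0382) and ENSG00000261061 by 0.90 (SE 0.22, adjusted p 0.0153), and they passed under 6 and 7 of the 15 alternatives, with the call lost by edgeR, in a fit of the 8 starved samples alone and when single samples were left out. The naming rule did not cover some genes with a larger rise in KO, and these were picked after their values were seen. Among them were ALDH1A3, a retinal dehydrogenase (0.92), PHLDB2 (1.05), FAM110B (0.82), PLA1A (0.82) and TNFSF4 (1.12). Their results under the alternatives are not given here.

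A few genes moved in KO cells with little change in control. EFNB2, an ephrin ligand (chr13:107142093-107188010), was at 966 and 823 and 840.0 and 799 in control and at 347 and 379 and 689 and 712 in KO, a difference of 1.07 (SE 0.19, adjusted p 9.3e-06). All 4 KO samples lay below the 4 control samples, and 36.4% of its exon length is overlapped by exons of the other strand. NHSL1, a Nance-Horan syndrome-like protein, stood at 318 and 327 and 361 and 294 in control and at 675 and 677 and 1373 and 1351 in KO, a difference of 0.99 (SE 0.19, adjusted p 8.54e-05). Here all KO samples lay above the control samples. Both genes passed under each of the 15 alternatives, whereas CYP2U1, a fatty acid hydroxylase, differed by 0.67 (SE 0.17, adjusted p 0.0283) and passed under 5 of 15.

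Other genes rose less in KO cells. UGT2B11 went from 23.8 and 21.9 to 675 and 737 in control and from 83.6 and 64.9 to 423 and 372 in KO, a difference of -2.52 (SE 0.32, adjusted p 9.41e-12). Its neighbour UGT2B28 was at 10.5 and 9.0 and 301 and 355 in control, a difference of -1.98 (SE 0.46, adjusted p 0.00728) that passed under 10 of 14 alternatives and missed the threshold by edgeR (adjusted p 0.0623), in the fit of the starved samples and without either KO EtOH sample. In both genes the KO samples started higher and ended lower than those of control. TNFAIP3 was at 55.2 and 54.7 and 309.9 and 297 in control, a difference of -1.498 (SE 0.27, adjusted p 3.9e-05), and ID1 at 165 and 186 and 726 and 1047, a difference of -1.35 (SE 0.26, adjusted p 0.000137). With UGT2B11 these genes passed under each of the 15 alternatives. For TNFAIP3 the KO EtOH samples, at 174 and 167, were well above those of control, and the DHT samples of the lines lay close together. SAT1 was at 843 and 1128 and 5161 and 6976 in control, and its difference was -0.96 (SE 0.23, adjusted p 0.011). It passed under 8 of 15 alternatives and was lost by edgeR, in the fit of the starved samples and when any 1 of the KO samples was left out. The remaining ones, picked after their values were seen, included RUNX1 (-1.37), a Runt transcription factor, MICAL1 (-1.01), FADS1 (-0.86), ADAMTS1 (-0.82), BICD2 (-0.81) and the histone gene H2BC21 (-0.59). For these genes too the results under the alternatives are not given.

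The 7 genes that fell less in KO were BCHE, CAMK2N1, CBLN2, GRB10, SESN3, DDC and ACKR3. BCHE, butyrylcholinesterase, went from 717 and 639.6 to 110.0 and 154 in control and from 1269 and 1219 to 509.9 and 503 in KO, a difference of 1.06 (SE 0.23, adjusted p 0.00153). CBLN2 went from 5829 and 6137 to 954 and 991 in control, a difference of 0.70 (SE 0.13, adjusted p 8.54e-05). DDC was at 2232 and 2596 and 539 and 605 there, a difference of 0.68 (SE 0.17, adjusted p 0.0153). In all 3 genes the KO samples lay above the control samples of the same treatment. BCHE passed under 11, CBLN2 under 13 and DDC under 7 of 15 alternatives. GRB10 differed by 0.61 (SE 0.14, adjusted p 0.00809), CAMK2N1 by 0.80 (SE 0.19, adjusted p 0.00809) and SESN3, a sestrin, by 0.85 (SE 0.23, adjusted p 0.0488). GRB10 passed under 7, CAMK2N1 under 8 and SESN3 under 5 of 15 alternatives, and all 3 lost the call by edgeR, in the fit of the starved samples alone and when any 1 of the KO samples was left out. ACKR3, which the rule did not name and for which the results under the alternatives are not given, differed by 0.87 (SE 0.14, adjusted p 2.85e-06).

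**Figure D5:**
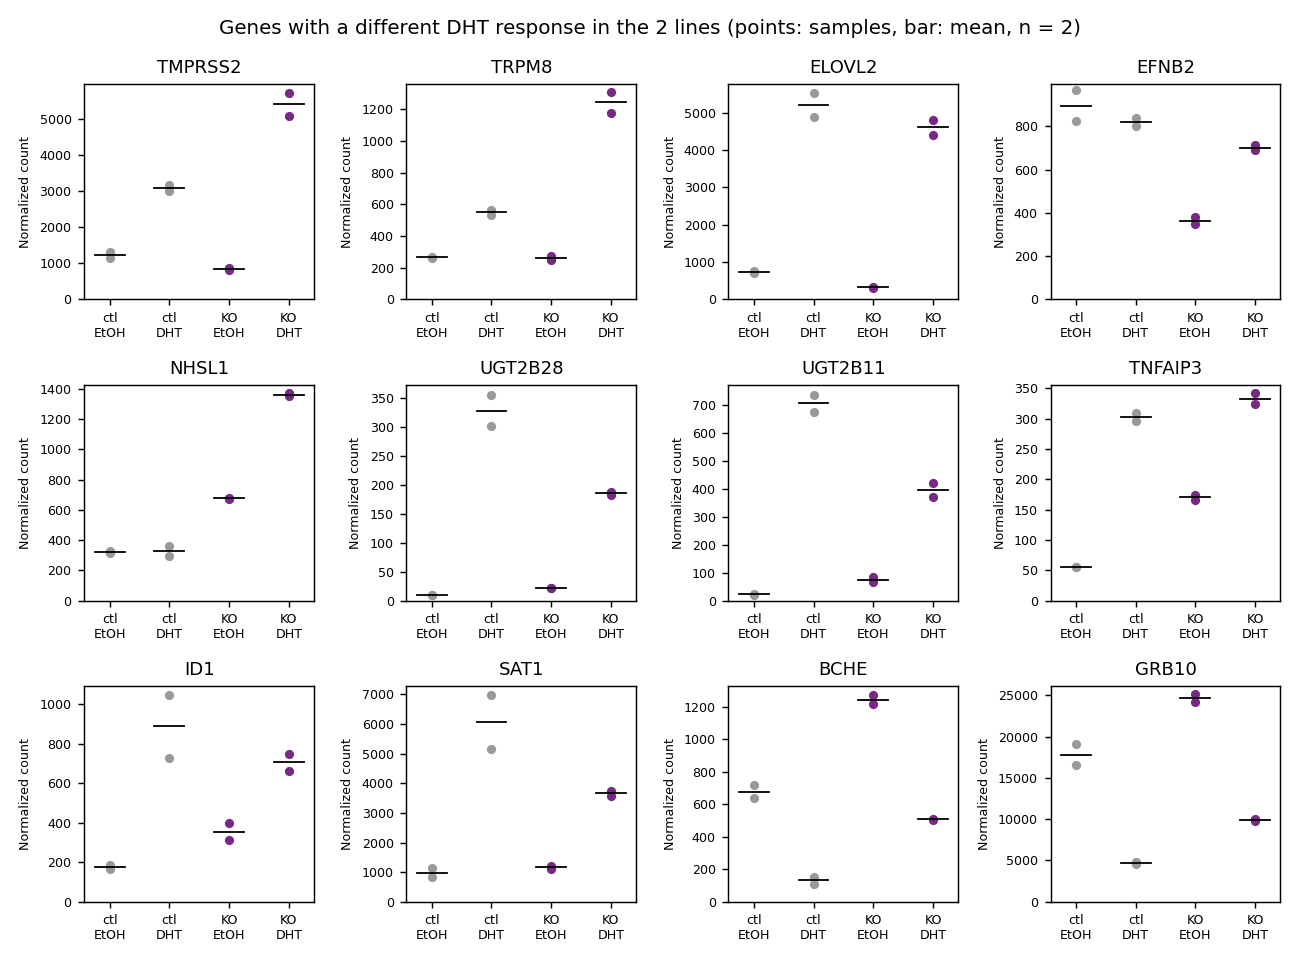
Normalized counts (vertical axes, linear from 0) of 12 genes past the test of the difference in each EtOH and DHT sample of control (grey) and KO (purple), with bars at the mean of 2 samples. TMPRSS2 and TRPM8 end higher in KO, UGT2B28 and UGT2B11 end lower, and the KO samples of BCHE and GRB10 stay above those of control with DHT.

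A call in KO and none in control was far more frequent than a tested difference. Of the genes called in KO, 134 higher and 149 lower ones were not called in control, and 5 of these, all higher, passed the test of the difference. The KO-only genes had a median change of 0.84 in KO and 0.49 in control in the KO direction, so that most moved the same way in both lines. ENDOD1, an endonuclease-domain protein, had the smallest adjusted p among them, with 12472 and 13065 in KO EtOH, 24669 and 22863 in KO DHT, 11480.2 and 10847 in control EtOH and 14808 and 14329 in control DHT. Its difference of 0.51 (SE 0.13, adjusted p 0.018) was below the fold minimum. PURA, a DNA- and RNA-binding protein, fell from 2208 and 2237 to 1182 and 1065 in KO (log2 -0.98, SE 0.11, adjusted p 1.82e-17), with a difference of -0.46 that did not pass (adjusted p 0.346). The ion cotransporter SLC12A2 fell from 4085 and 4407 to 2198 and 1788 (log2 -1.09, SE 0.13, adjusted p 1.15e-14), and NSMAF rose from 747 and 789.6 to 1497 and 1467 (log2 0.95, SE 0.11, adjusted p 3.93e-16). Neither differed past the test from control (adjusted p 0.228 and 0.623).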

How the data were processed

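Poly(A) RNA of the 12 samples was prepared with a stranded TruSeq kit and sequenced on a HiSeq instrument. Per the submitters' processing notes and the study's methods, the authors used CASAVA 1.7, aligned to GRCh37 with TopHat2 2.0.11 and assigned reads to Ensembl genes with HTSeq 0.5.3p3. The strand setting of the counting and the Ensembl release are not given in the sources used here, so that reads from overlapping antisense genes may have been mixed. The deposited values are raw counts per gene, with no normalization, for 63677 identifiers and 5 tallies of uncounted reads in each sample. The tallies stayed out of the fits: no feature (3.55% to 4.58% of all reads tallied or counted), ambiguous (6.90% to 7.97%) and not unique (15.9% to 20.0%). Intervals and floors cover counting error only.

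Genes with at least 10 counts summed over the 12 samples were kept (26156). DESeq2 1.42.0 (R 4.3.3) was fitted once with a coefficient per group, as the study's methods name it, with median-of-ratios size factors, Wald tests and unshrunken log2 fold changes. edgeR 4.0.16 was the alternative. Adjusted p-values are Benjamini-Hochberg over all genes tested (17535 in KO, 13478 for the interaction). A gene was called at an adjusted p of at most 0.05 and a fold change of at least 1.5. Normalized counts are counts divided by size factors. RPKM was computed from the counts and exon lengths. Symbols, positions and exon overlaps came from GENCODE v44 lifted to GRCh37, which held 55665 of the identifiers.

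Genes were named by rule: the 12 largest rises and 12 largest falls with a mean of at least 100 and no overlap between groups, the 6 largest rises and 6 largest falls in counts, BAG1 and all androgen-induced genes, up to 4 called members per list with a mean of at least 100, and the 6 most extreme interaction, KO-only and lncRNA genes. Some genes that the rule names or that count in a list are not reported here. A few others are marked as picked after their values were seen or serve as list members. The comparison, gene lists and rule were chosen with earlier results of these data known. Cultures behind the duplicates were not described further, so that p-values measure the spread between these samples. The scripts were tested on simulated data. Alternatives are given in the closing section.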

Additional observations from a re-analysis of the deposited data

Results flagged for a closer look

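The DHT response differed between KO and control past the threshold in 55 of the tested genes, and in 20 of the genes named by the rule. The values are differences in log2 fold change, KO minus control, from the DESeq2 interaction. The rise was larger in KO for TMPRSS2 (1.39), TRPM8 (1.21), EFNB2 (1.07), CHRNA2 (1.02), ELOVL2 (0.99), NHSL1 (0.99), ENSG00000261061 (0.90), CENPN (0.89) and CYP2U1 (0.67). It was smaller in KO for UGT2B11 (-2.52), UGT2B28 (-1.98), TNFAIP3 (-1.498), ID1 (-1.35) and SAT1 (-0.96). The fall was smaller in KO for BCHE (1.06), SESN3 (0.85), CAMK2N1 (0.80), CBLN2 (0.70), DDC (0.68) and GRB10 (0.61). Of these 20 genes 9 passed under every alternative tried for them, and 11 lost the call under at least 1. The 9 were TMPRSS2, TRPM8, EFNB2, ELOVL2, NHSL1, CENPN, UGT2B11, TNFAIP3 and ID1.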

How the results depend on the processing

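The number of genes called in KO (1346) was 1572 by edgeR, of which 1320 were shared with DESeq2, 1334 with TMM size factors, 1331 without a filter on low counts, 1187 with at least 10 counts in every sample, 1280 in a fit of the KO samples compared and 1271 with counts thinned to the smallest total. Without the fold minimum it was 2384, with 1407 higher and 977 lower. Leaving out 1 sample of KO or control at a time gave 961 to 1363 called genes, 611 to 791 higher and 326 to 572 lower, the lowest when a KO EtOH sample was missing. With the replicate number as a block common to all groups 1317 were called. The replicate numbers are not known to pair the samples. The deviations of KO EtOH and KO DHT correlated at -0.21 over 11374 genes. Over the 15 pairs of groups the correlation ran from -0.42 to 0.69, and the 0.69 was that of control EtOH and control DHT. Whether the control samples were paired was not tested. A replicate block within the 4 KO starved samples, added after seeing the data, gave 1032 (668 higher, 364 lower), and the crossed pairing 1083 (678 higher, 405 lower).

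The number of genes past the test of the difference between lines (55) was 24 by edgeR and 19 in a fit of the starved samples, 49 with the replicate block and 59 without the fold minimum. Leaving out 1 sample at a time it ranged from 16 to 154, with 154 without control EtOH replicate 2, 16 and 20 without KO EtOH replicates 2 and 1, 29 and 34 without KO DHT replicates 1 and 2, and 31 without control DHT replicate 2. The cause was not tested.

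Of 133 called genes named by the rule, 127 kept direction and call under each of the 17 alternatives that gave them a value. The others were AEN, DHX36, INSIG2, OAS3, SLC38A1 and TNFRSF10B, each lost when 1 KO sample was left out, and AEN also with at least 10 counts in every sample. ORM1, at the floor, ranged from log2 -0.030, without KO EtOH replicate 2, to 3.68, without KO EtOH replicate 1. TMM scaling moved the median of all genes from -0.014 to -0.0019.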

Other observations

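KO cells in full medium, whose serum hormones were not measured, give a second level for the same genes without starvation. Because they would share the EtOH samples with the DHT response, only their values are given. FKBP5 was at 17689.7 and 18174 normalized counts in KO FM beside 23628 and 22488 in KO DHT, and TMPRSS2 at 6267 and 7051 beside 5724 and 5075. ODC1, at 55034 and 59059 in FM, lay well below its DHT samples, and so did SGK1, at 298 and 320.0 in FM and 1194 and 1072 in DHT. TRGC1 lay above them, at 1534 and 1486 in FM and 333 and 305 in DHT, as did UGT2B28, at 980.3 and 1120.1 in FM and 182 and 188 in DHT. CAMK2N1 was at 35.4 and 39.5 in FM, below its 508 and 505 in DHT, and PLPPR1 at 44.8 and 40.6, below 188 and 228. CDC6, a replication licensing factor, was at 3514 and 3442 in FM and 1609 and 1460.2 in DHT, and CDC25A at 1884 and 1982 and 758 and 775, so that both were higher in FM.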
